A study of Pseudotsuga menziesii with 83 samples.

Results

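Needles of 11 Douglas-fir trees (Pseudotsuga menziesii) collected on 10 March were compared by the origin of their seed, 4 trees from Oregon against 7 from Washington. The comparison took the libraries labelled with that date in the deposited count table, 11 of the 47 libraries it holds and of the 83 samples labelled in the series, and all 11 trees were labelled as not yet past budbreak. One more Washington library, of Cascades tree 38, is labelled 17 June, while the study's sampling list gives tree 38 a library on 10 March and none on 17 June. It could therefore be an eighth Washington library of the date compared, and it was left out of both dates. The 4 Oregon trees came from the Siskiyou seed source (ORSI), as 2 siblings of each of 2 families, numbered here by tree as 44 and 90 in one family and 46 and 89 in the other. The 7 Washington trees were 3 of the Cascades source (WACA), trees 05 and 39 of one family and tree 08 of another, and 4 of the Coast source (WACS), the siblings 10 and 69 and the siblings 12 and 68. All grew in 1 nursery plot in southern Oregon, and the needles sampled had formed in the season before, so site, date and needle age were shared. The seed came from about 43 degrees north in Oregon and 47 degrees north in Washington, and from elevations, to the nearest 10 m, of 570 and 290 m in Oregon, 980 and 920 m in the Cascades and 70 and 150 m on the Coast. Region and latitude therefore cannot be told apart, while the Oregon elevations lie between those of the Washington sources.

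Douglas-fir grows along a wide range of latitude and elevation, and trees raised from different seed sources in 1 garden keep inherited differences in when they harden in autumn and when their buds open in spring. Mature needles stay on the tree through winter, when cold hardiness is high and growth is stopped, and in late winter they lose hardiness and regain photosynthetic capacity before any bud opens. Strand-specific RNA-seq of bulk needles measures the relative abundance of transcripts in this mix of cells, in which fewer cells of a type and less RNA per cell cannot be told apart. The features of the count table carry numbers only, with no gene name, function or sequence, and they are described here by their levels. Assemblies made in the study from such needles also held sequences of organisms that live on the needle surface, so the species behind a numbered feature is not known.

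The later labels give the timing that separated the regions. On 7 April 3 of the 4 Oregon trees and 0 of the 8 Washington trees were labelled as past budbreak, and on 22 April 4 of 4 and 1 of 8. On 10 March the counts were 0 of 4 and 0 of 7, so the March libraries precede the labelled difference in all trees.

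The 11 libraries had nearly the same total, 11293394 to 11300327 counts, and between 44380 and 54639 of the 90662 features had at least 1 count. Libraries were sequenced on 2 flowcells, and no 2 siblings shared one. With flowcell added to the fit, 0 of 30496 features differed between flowcells at the threshold of edgeR, and 1055 (3.46%) had an unadjusted p up to 0.05. Tree 90 stood apart. It had the fewest detected features (44380, against 49156 to 54639 in the other 10 libraries) and lay at -159.76 on the first principal component of log2 CPM (counts scaled to a common library total), where the other Oregon trees lay between -19.26 and 7.16. The study's sampling list gives tree 90 the most reads of the 11 libraries, whereas the deposited totals are nearly equal. Whether this bears on its position was not tested.

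**Figure D1:**
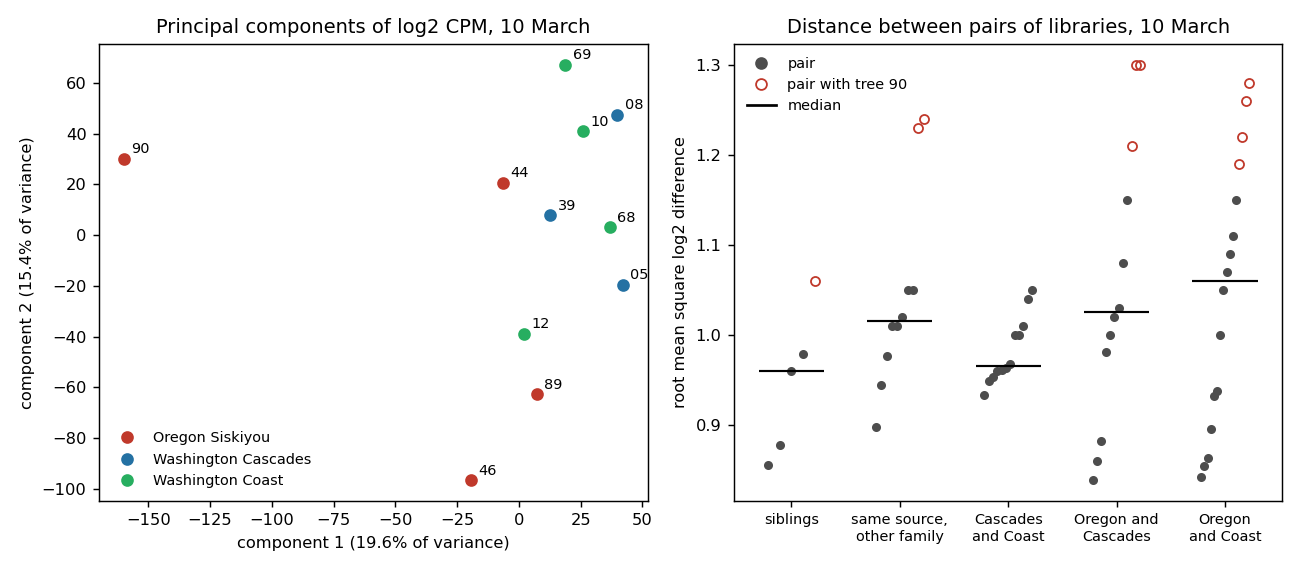
Left, first and second principal components of log2 CPM over the 30496 features tested, 1 point per library with its tree number, coloured by seed source. Right, root mean square log2 difference between each pair of libraries by kind of pair (5, 10, 12, 12 and 16 pairs), with the median as a line and pairs with tree 90 as open circles. Tree 90 lies far to the left, and pairs across regions span the range of pairs within a source.

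Across the whole transcriptome, libraries of the same region were little closer to each other than libraries of different regions. The root mean square log2 difference over 30496 features was 0.856 to 1.06 (median 0.96) for the 5 pairs of siblings. It was 0.898 to 1.24 (median 1.02) for the 10 pairs of the same source and different families, 0.839 to 1.3 (median 1.03) for the 12 pairs of an Oregon and a Cascades tree, and 0.842 to 1.28 (median 1.06) for the 16 pairs of an Oregon and a Coast tree. The 12 pairs of a Cascades and a Coast tree had a median of 0.966. Pairs that share a tree are not independent, and these distances are given as a description without a test. The highest distance between any pair without tree 90 was 1.15, and without that tree the median was 0.96 within Oregon (3 pairs), 0.979 within Washington (21 pairs) and 1 between the regions (21 pairs).

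Oregon tree 44 lay at 0.839 to 0.932 from the 7 Washington libraries and was the nearest library of 5 of these trees. Its own distances to the other Oregon trees were 0.898 to 1.06, and its nearest library was Cascades tree 08. Trees 46 and 90 had an Oregon tree as nearest library, whereas tree 89 was nearest to Coast tree 12 (0.896). The Oregon trees were thus not a compact group in March. The median standard deviation of log2 CPM was 0.473 within Oregon (n = 4) and 0.434 within Washington (n = 7), and it was 0.385 for Oregon without tree 90.

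Of 6 summary values of the libraries, 1 differed between the regions after Benjamini-Hochberg adjustment. The first principal component, which held 19.6% of the variance, was -44.6 ± 77.5 in Oregon (SD, n = 4) and 25.5 ± 15.0 in Washington (SD, n = 7; two-sided exact permutation p = 0.00606, adjusted p = 0.0364, where the smallest p the design allows is 0.00303). The 4 Oregon scores were -6.55 (tree 44), -159.76 (tree 90), -19.26 (tree 46) and 7.16 (tree 89), and the Washington scores ran from 2.23 to 42.03 with a median of 26.1. The groups overlapped through trees 89 and 12. The component is shaped by tree 90, and when components were computed anew without that tree, the first one was -47.7 ± 59.5 in Oregon (n = 3) and 20.4 ± 37.5 in Washington (n = 7) with an exact permutation p of 0.0583. Within the flowcells the difference on the first component was -40.4 (fc1022, 2 against 4 libraries, exact permutation p = 0.0667) and -99.0 (fc1025, 2 against 3, exact permutation p = 0.1), which are the smallest p values that these numbers of libraries allow.

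The number of detected features was 49397 ± 3608 in Oregon (n = 4) and 52103 ± 1752 in Washington (n = 7), a difference that did not pass (exact permutation p = 0.112, adjusted p = 0.224). Without tree 90 the difference went from -2705 to -1033 features (exact permutation p = 0.425, unadjusted). The share of counts held by the 50 most abundant features was close to constant in Oregon, from 21.1% to 21.9%, whereas Washington libraries ranged from 15.9% to 24.8% (exact permutation p = 0.203, adjusted p = 0.244). The number of features that together held 50% of the counts was 600 to 690 in Oregon and 540 to 896 in Washington (exact permutation p = 0.0636, adjusted p = 0.191). Both of these values turned on Coast tree 12, which had the most concentrated library of all 11. Without it the difference in share was 2.98 percentage points (exact permutation p = 0.0286, unadjusted) and the difference in number was -182.5 features (exact permutation p = 0.0143, unadjusted).

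No single feature passed the threshold between Oregon and Washington in March. Of 30496 features with a median count over 5, edgeR's quasi-likelihood test found 0 higher (0%) and 0 lower (0%) in Oregon (adjusted p up to 0.01), and the lowest adjusted p was 0.214. An unadjusted p up to 0.05 was reached by 2484 features, 8.15% of those tested, of which 1305 were higher in Oregon and 1179 lower. DESeq2 on the same counts called 32 features, 0.105% of those tested, 14 higher and 18 lower in Oregon. The 2 tools therefore differed in the call.

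The differences themselves were small for most features. The median absolute difference was 0.26 on the log2 scale, 90% of features lay within 0.78, and 1644 features (5.39%) differed by more than 1. The 95% interval of the difference had a median half-width of 0.67 on the log2 scale, and for 16072 features (52.7%) the whole interval lay between -1 and 1. This share rose with abundance, from 14.4% of the 7877 features with a mean count under 20 to 80.8% of the 3860 features with a mean count over 500. For the abundant features a change of more than 1 on the log2 scale would thus lie outside the interval in most cases, whereas for the rare ones the comparison is open to changes of that size. The share of features with an unadjusted p up to 0.05 also rose, from 7.13% to 10.6%.

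In 300 features (0.984%) the libraries of the regions did not overlap in CPM. All 4 Oregon libraries lay above all 7 Washington libraries in 134 features (0.439%) and below them in 166 (0.544%). Without tree 90 the number was 492 (1.61%), 216 higher and 276 lower in Oregon. Only 3 Oregon libraries in place of 4 then have to lie outside the Washington range. Leaving out a library can only keep or raise this number, so the rise is no sign of a clearer separation. The share that libraries without a difference between regions would reach was not computed for either number. Among the 300, the mean log2 CPM of Oregon was closer to that of the Coast than to that of the Cascades in 150 features.

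**Figure D2:**
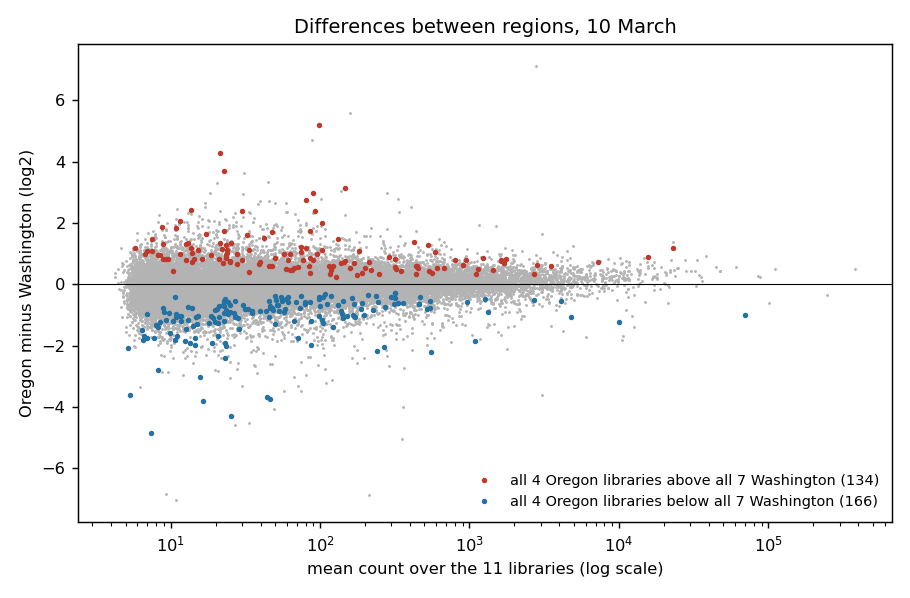
Oregon minus Washington log2 difference against the mean count over 11 libraries (log scale) for the 30496 features tested on 10 March. Grey points are features whose regions overlap in CPM, and the 134 red and 166 blue points are those in which all Oregon libraries lay above or below all Washington libraries; the separated features occur at all abundances and include differences under 1.

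Features to be shown singly were to be drawn from those past the threshold, and there were none. After values had been seen, the same rule was therefore applied at an unadjusted p up to 0.05, among features averaging 50 counts or more with no overlap between the regions, 73 higher and 73 lower in Oregon. In each direction the largest difference and the highest mean count are given, as a description of how such features behave.

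The feature gene73506 was higher in each Oregon tree than in any Washington tree. Its CPM on 10 March was 18.3, 45.9, 17 and 16.8 in Oregon trees 44, 90, 46 and 89. In the Cascades it was 2.79, 0 and 0.0823 in trees 05, 39 and 08, and on the Coast 0.5, 0.512, 0.588 and 0.161 in trees 10, 69, 12 and 68. The lowest Oregon library was thus 16.8 and the highest Washington library 2.79, with tree 90 highest within Oregon and tree 05 highest within Washington. The difference was 5.20 ± 0.72 on the log2 scale (SE; edgeR unadjusted p = 7.01e-06, adjusted p = 0.214; DESeq2 adjusted p = 0.00019). When Cascades tree 05 was left out the edgeR adjusted p was 0.00379, and this was the 1 feature that passed in any of the 11 comparisons with a tree left out.

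The same feature kept this pattern in the later libraries of the same trees. In Oregon its CPM was 33.7 to 106 on 7 April, 21.9 to 103 on 6 May and 34.1 to 69.7 on 17 June. In Washington the highest value was 4.42, 15.8 and 19.2 on these dates, each time in Cascades tree 05, and the median was 0.36, 0.132 and 0.256. The regions did not overlap in CPM on any of the 4 dates. Tree 39, the sibling of tree 05, was at 0 on 7 April and 6 May. On 6 May and 17 June the feature fell below the count filter, because most of the libraries are from Washington and the median count over all libraries is then a Washington value.

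The feature gene38740 was the most abundant of those higher in Oregon. Its CPM was 3090, 4720, 2450 and 2720 in trees 44, 90, 46 and 89, against a lowest, median and highest value of 912, 1200 and 2430 in Washington. The highest Washington library, Coast tree 12, all but reached the lowest Oregon library, tree 46. The difference was 1.18 ± 0.30 on the log2 scale (SE; edgeR adjusted p = 0.394, DESeq2 adjusted p = 0.0443). The regions overlapped on the later dates, with differences of 0.90 ± 0.40 on 7 April, -0.19 ± 0.39 on 6 May and -0.04 ± 0.27 on 17 June (log2, SE). The Washington mean was 1430 CPM in March, 3260 in April and 7280 in May, and the Oregon mean 3250, 6070 and 6360.

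Among the features lower in Oregon, gene80206 had the largest difference. Its CPM was 19.2, 19.6, 9.81 and 10.5 in trees 44, 90, 46 and 89, so on this date siblings were close within each Oregon family. This did not hold for all families. The Washington siblings had 86.8 and 65.7 (trees 05 and 39), 42.9 and 111 (trees 10 and 69) and 71.5 and 64.7 (trees 12 and 68). In Washington the lowest, median and highest values were 34.1, 65.7 and 111. The difference was -2.20 ± 0.34 on the log2 scale (SE; edgeR unadjusted p = 2.22e-05, adjusted p = 0.25; DESeq2 adjusted p = 1.68e-06). By 7 April the feature had a mean of 2.38 CPM in Oregon and 8.59 CPM in Washington, and the regions overlapped (difference -1.85 ± 0.87, edgeR unadjusted p = 0.053). On 17 June it was at or below 0.59 CPM in each library of both regions.

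The feature gene33484 was the most abundant of those lower in Oregon, with a mean count of 69460. Its CPM was 3600, 4650, 4520 and 2090 in Oregon trees 44, 90, 46 and 89, and 4910, 6840 and 13300 as the lowest, median and highest Washington values. Trees 90 and 46 lay just below the lowest Washington library, tree 08. The difference was -1.01 ± 0.31 on the log2 scale (SE; edgeR adjusted p = 0.54, DESeq2 adjusted p = 0.132). It was -0.38 ± 0.32 on 7 April, -0.91 ± 0.51 on 6 May and -0.82 ± 0.33 on 17 June, with overlapping regions on all 3 dates.

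**Figure D3:**
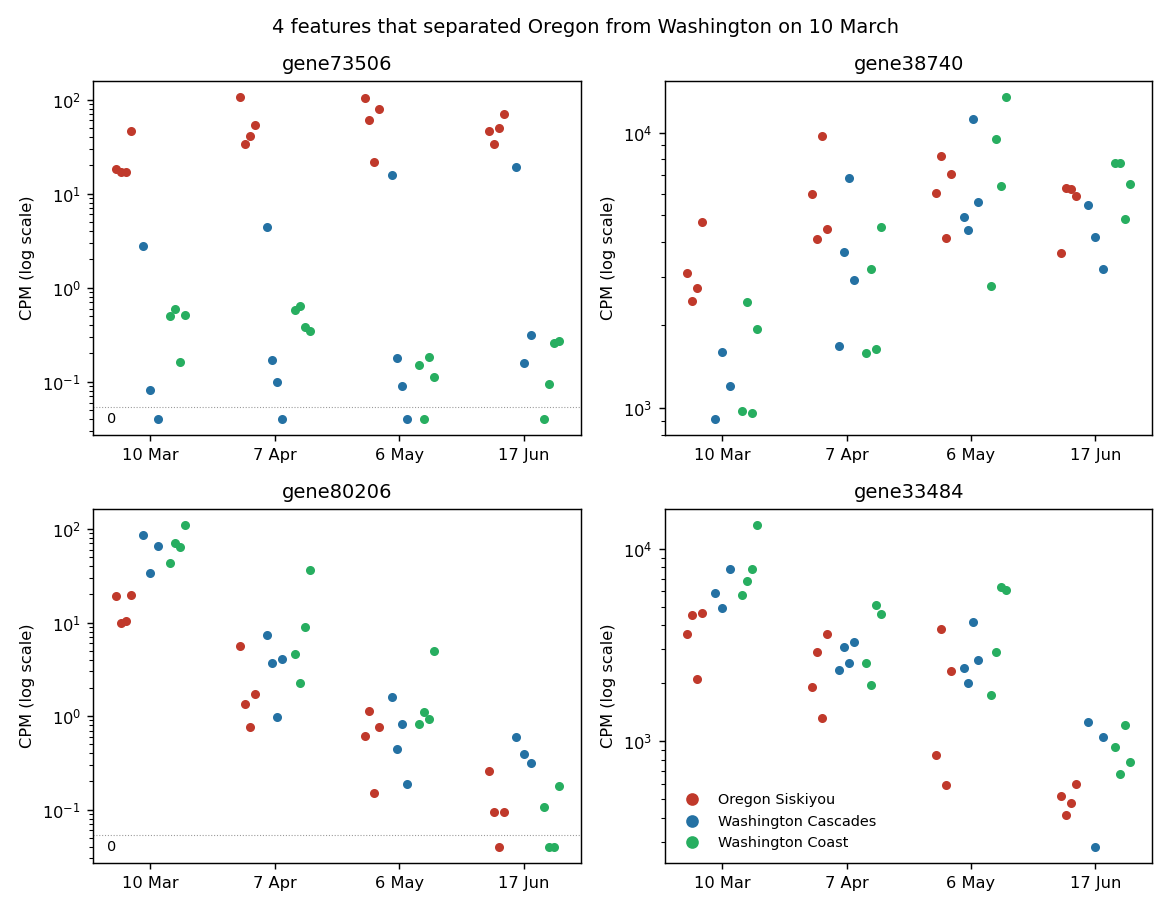
CPM (log scale) of 4 features in each library on the 4 dates, 1 point per library, coloured by seed source, with values of 0 drawn below the dotted line. In gene73506 the Oregon points stay above all others on each date, while in the other 3 features the separation of 10 March is followed by overlap.

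The 32 features called by DESeq2 were mostly of moderate abundance, with a median mean count of 93.7, and 20 of them averaged 50 counts or more. Their absolute log2 difference ranged from 0.73 to 7.05 with a median of 2.69. In 22 of the 32 the regions did not overlap, in 10 at least 1 library was at 0, and in 2 a whole region was at 0. Their unadjusted p in edgeR ran from 7.01e-06 to 0.00219. Without tree 90 DESeq2 called 31 features, and 19 were in both lists, 59.4% of the first and 61.3% of the second. On the later dates, in other libraries of the same trees, 31 of 31 features tested on 7 April, 26 of 26 on 6 May and 22 of 22 on 17 June had a difference of the March sign, and the edgeR unadjusted p was at most 0.05 in that direction for 25, 14 and 15 of them, where 13.9%, 9.31% and 9.15% of all features tested on these dates reached that p in either direction. The regions were again fully separated in the March direction in 5 of the 31, 3 of the 26 and 3 of the 22. Of all features tested, 0.687% were separated upwards and 0.879% downwards on 7 April. These shares were 0.555% and 0.464% on 6 May, and 0.77% and 0.738% on 17 June. In March 22 of the 32 were separated, but the March libraries also picked them. Among all features tested, 49.2%, 48.3% and 49.4% were higher in Oregon on the 3 later dates. Apart from Cascades tree 38 on 7 April and 6 May, the trees are the same on all dates, and these counts have no test.

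The count filter treated the regions unequally, since a feature present in the 4 Oregon libraries alone has a Washington value as its median. Of the 47483 features below the filter with at least 1 count, 159 had all Oregon libraries above all Washington libraries, and in 3 of these the Oregon mean was at least 20 counts. In the opposite direction 0 features below the filter had a Washington mean of at least 20 counts with all Oregon libraries lower. With no filter, edgeR called 4 features of 77979, all higher in Oregon, with 5385 at an unadjusted p up to 0.05. One was gene73506, and the other 3 lay below the filter. One of these had 28, 19, 24 and 27 counts in trees 44, 90, 46 and 89 and 0 to 3 counts in Washington (log2 difference 5.00 ± 0.67, edgeR adjusted p = 0.00939). Another had 1519, 7859, 3 and 228 counts in the same trees and 0 to 9 in Washington, and the last had 0, 217, 10 and 414 counts against 0 to 1. In these 2 features the Oregon trees differed among themselves by far more than the lowest of them differed from Washington.

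Strict presence in 1 region was rare and faint. Of 90662 features, 21 had 0 counts in all 4 Oregon libraries beside at least 1 count in each of the 7 Washington libraries. The highest median count among them was 7. The reverse occurred in 8 features, with a highest median of 8.5. With a count in any library of the other region, 12554 features were at 0 in all Oregon libraries and 3438 in all Washington libraries. The regions differ in their number of libraries, so the counts of the 2 directions cannot be set against each other. On 17 June 0 of the 21 and 2 of the 8 again showed the pattern. At these counts an absence was not separable from a low level at this depth.

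The Washington sources were compared with Oregon one at a time in a fit with 1 mean per source. Oregon against Cascades gave 0 features past the threshold (0%), with 2214 (7.26%) at an unadjusted p up to 0.05 and 44 called by DESeq2. Oregon against Coast gave 4 features (0.0131%), 2 higher and 2 lower in Oregon, and Cascades against Coast also gave 4 features (0.0131%), 2 higher and 2 lower in the Cascades. DESeq2 called 40 and 22 features in these comparisons. The 2 comparisons share the Coast libraries, and the 4 features were the same ones, in which the 4 Coast trees lay to one side of all Oregon and Cascades trees. The spread of all 3 contrasts was similar, with a median standard error of 0.38 for Oregon against Cascades, 0.35 for Oregon against Coast and 0.38 for Cascades against Coast on the log2 scale.

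The most abundant of these 4 features, with a mean count of 962.8, had 6, 1.37, 2.94 and 1.53 CPM in Coast trees 10, 69, 12 and 68. It had 82.6, 150, 65 and 120 CPM in Oregon trees 44, 90, 46 and 89 and 191, 176 and 153 CPM in Cascades trees 05, 39 and 08, so that the 3 sources did not overlap. Its difference was 5.14 ± 0.48 between Oregon and Coast (log2, SE; edgeR adjusted p = 0.00112) and 5.87 ± 0.50 between Cascades and Coast (adjusted p = 0.00105). A second feature was at 0 to 0.25 CPM on the Coast, 5.98 to 15.6 CPM in Oregon and 13.2 to 16.1 CPM in the Cascades. The other 2 were higher on the Coast, one at 30.4 to 66.3 CPM against at most 0.823 CPM in any other tree, and one at 15.4 to 39.6 CPM against at most 2.49 CPM.

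The 4 features were picked by their March values. On the 3 later dates, in other libraries of the same trees, they again separated the Coast trees from all others in 12 of 12 combinations of feature and date. The share of all features that separated the Coast trees on these dates is not given here, so this count has no background. The most abundant one remained at 1.71 to 8.85 CPM on the Coast on 17 June, where the Oregon trees had 30.5 to 161 CPM and the Cascades trees 146 to 315 CPM. The feature highest on the Coast had 14.4 to 26.8 CPM there on 17 June and was at 0 in the 3 Cascades trees, with at most 0.0856 CPM in Oregon. Coast tree 12 bore on the calls, since without it 1 feature passed between Oregon and Coast and 0 between Cascades and Coast, and without any 1 of the 3 Cascades trees 2 passed between Cascades and Coast. Each Coast family was represented by 2 trees, so the pattern is that of 2 families.

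**Figure D4:**
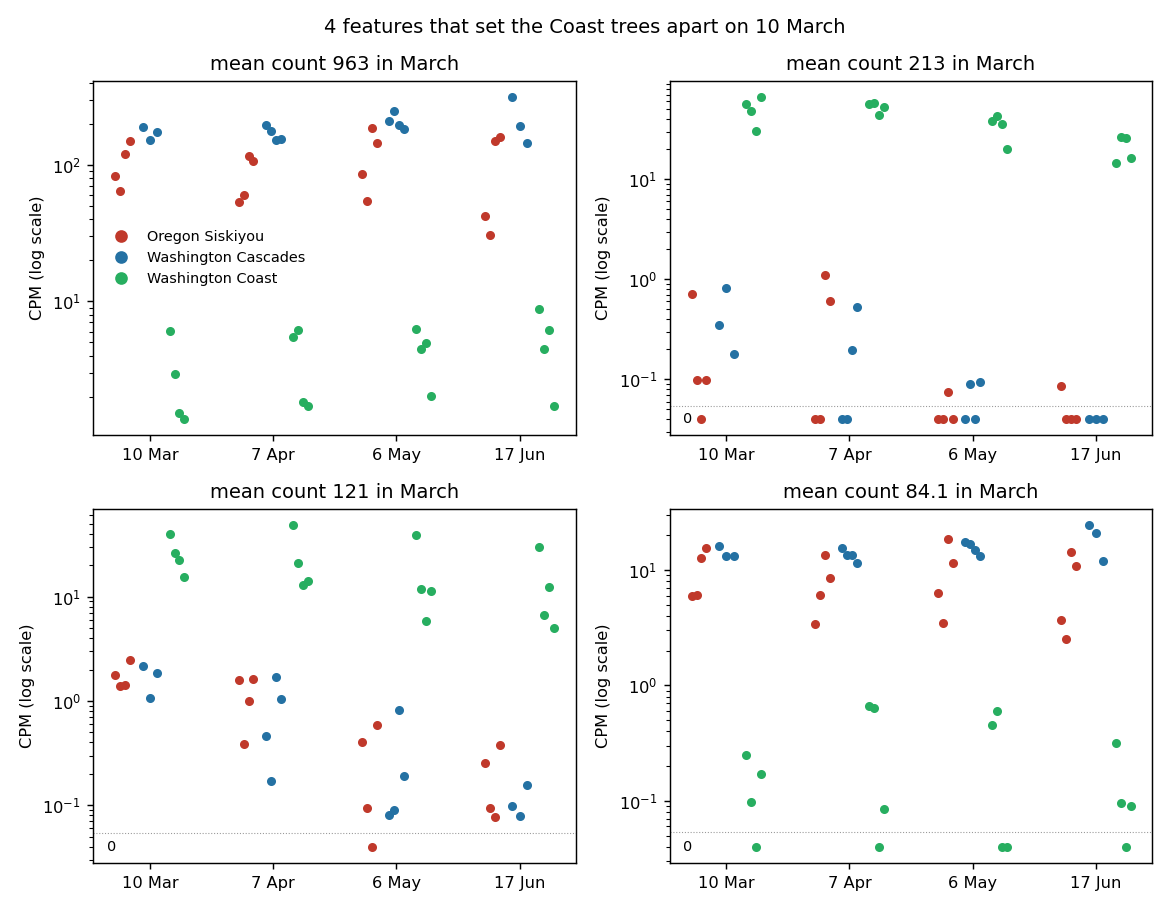
CPM (log scale) in each library on 4 dates for the 4 features past the edgeR threshold between Coast trees and the others on 10 March, titled by mean count, with values of 0 drawn below the dotted line. On every date all 4 Coast points lie to one side of all Oregon and Cascades points.

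The difference between the regions was measured again on the 3 later dates in the same trees, with 8 Washington trees in April and May. At the threshold of edgeR 0 features passed on 7 April (0% of 30848), 6 May (0% of 28263) and 17 June (0% of 28187). An unadjusted p up to 0.05 was reached by 4301 features (13.9%) on 7 April, 2632 (9.31%) on 6 May and 2579 (9.15%) on 17 June, against the 8.15% of 10 March, and DESeq2 called 125, 102 and 73 features. With 1 more Washington tree in April and May the dates differ in the number of libraries, and the difference between these shares was not tested.

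Features separated in March were again separated in the same direction more often than the background of each date. Of the 134 features higher in Oregon, 13 of the 131 tested on 7 April (9.92%) were again fully separated upwards, where the share of all features was 0.687%, 5 of 127 (3.94%) on 6 May against 0.555%, and 9 of 123 (7.32%) on 17 June against 0.77%. Of the 166 lower in Oregon, 7 of 161 (4.35%), 6 of 147 (4.08%) and 10 of 138 (7.25%) were again separated downwards, against 0.879%, 0.464% and 0.738%. On each later date 0 were separated in the opposite direction. Apart from Cascades tree 38 on 7 April and 6 May, the trees are the same on all dates. With that exception these are repeat measurements of the same 11 trees and not new trees. The median difference of the 134 shrank from 0.83 in March to 0.51, 0.34 and 0.33 (log2), and that of the 166 from -0.91 to -0.42, -0.37 and -0.31 (the March values picked these features and the later values did not). Over the 26222 features tested on all 4 dates, 1 was separated on each of them, lower in Oregon. This count leaves out gene73506, which was below the filter on 2 dates. No test was made of these shares.

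Whether the difference between the regions changed from March to a later date was tested in 1 fit of 46 libraries. With region and date alone, 0 of 29189 features (0%) changed by 7 April, 6 May or 17 June, with 777, 1510 and 1004 at an unadjusted p up to 0.05 and 1, 0 and 0 called by DESeq2. With the tree as a block, which uses that each tree was sampled repeatedly, 2 features changed by 7 April (0.00685%), 5 by 6 May (0.0171%) and 0 by 17 June (0%), with 2380, 3448 and 2977 at an unadjusted p up to 0.05.

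The 5 features of 6 May all moved upwards in Oregon relative to Washington, by 1.53 to 4.20 on the log2 scale (edgeR adjusted p 0.0061 to 0.00888). The regions overlapped in all 5 on both dates. The largest change was in a feature with 0.984 to 7.43 CPM in Oregon and 0.882 to 8.09 CPM in Washington on 10 March, which had 11.7 to 308 CPM in Oregon and 0.688 to 18.1 CPM in Washington on 6 May. The most abundant of the 5 went from 0.626 to 12.2 CPM in Oregon and 0.392 to 29.4 CPM in Washington in March to 51.8 to 267 CPM and 2.24 to 53.6 CPM in May. The 2 features of 7 April moved down in Oregon relative to Washington, by -1.33 ± 0.22 and -1.80 ± 0.29 (log2, SE), with overlap between the regions on both dates.

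The position of each March library along the spring change was described with a season score. The score is the mean log2 CPM of features that rose from 7 April to 17 June in the Washington trees minus the mean of those that fell, 4770 (16.2%) and 4722 (16%) of 29487 features with an adjusted p up to 0.01 (edgeR, tree as a block). Of these, 4701 and 4550 passed the count filter over all 46 libraries and entered the score. No March library entered the fit that called these features, but the March libraries took part in the count filter, the Washington trees that chose the features are those compared, and the score has no test.

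On 10 March the season score was -0.06, 0.23, 0.45 and 0.15 in Oregon trees 44, 90, 46 and 89. In Cascades trees 05, 39 and 08 it was -0.13, 0.05 and -0.27, and in Coast trees 10, 69, 12 and 68 it was 0.04, -0.40, 0.14 and -0.14. Trees 90, 46 and 89 were above all Washington trees, tree 44 was within their range, and the regions overlapped. The mean was 0.19 ± 0.21 in Oregon (SD, n = 4) and -0.10 ± 0.19 in Washington (SD, n = 7), with similar means in the Cascades (-0.12 ± 0.16, n = 3) and on the Coast (-0.09 ± 0.24, n = 4). By family the means were 0.08 and 0.30 in Oregon and between -0.27 and 0.002 in the 4 Washington families. Within flowcell fc1022 the Oregon mean was 0.19 and the Washington mean -0.05, and within fc1025 they were 0.19 and -0.16.

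The scale of this score is given by the later dates. In Washington the mean was -0.35 on 7 April, 1.03 on 6 May and 1.81 on 17 June, and in Oregon -0.002, 1.42 and 1.60. The March difference of 0.29 is therefore small beside the spring change, and in both regions the March mean lay above the April mean. By its mean Oregon was the higher region on the first 3 dates and the lower one on 17 June. Part of the Washington position in April and June is set by the choice of the lists, which used these libraries.

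**Figure D5:**
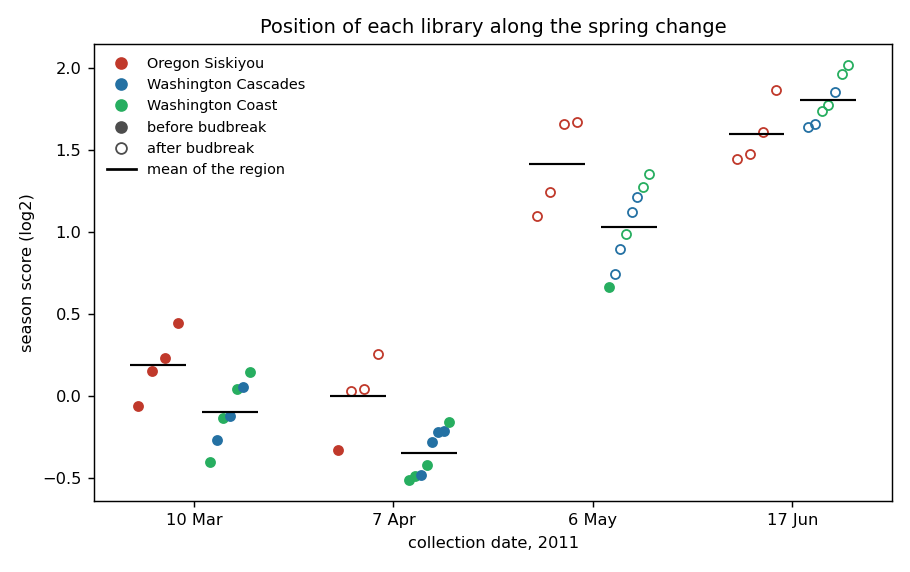
Season score (mean log2 CPM of features that rose minus those that fell from 7 April to 17 June in Washington) of each library by date, with Oregon to the left and Washington to the right of each date, filled before and open after labelled budbreak, and the region mean as a line. On 10 March all points are filled and 3 of 4 Oregon points lie above all Washington points.

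The score is a mean over its lists, so counts over the features of the lists give the same March difference in another form. Of the 4598 features that rose in spring and were tested in March, 2783 (60.5%) were higher in Oregon on 10 March, where 47.2% of all features tested were, and their median difference was 0.08 (log2) against -0.02 over all features. An unadjusted p up to 0.05 was reached upwards by 334 (7.26%, against 4.28% of all features) and downwards by 76 (1.65%, against 3.87%). Of the 4629 features that fell in spring, 1551 (33.5%) were higher in Oregon, with a median difference of -0.14, and 94 (2.03%) reached that p upwards and 323 (6.98%) downwards. The features of a list vary together across libraries, and these shares describe the 11 libraries without a test.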

How the data were processed

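RNA-seq counts were analysed for the 11 libraries of 10 March, with 35 libraries of 3 later dates for comparison. The authors deposited 1 table of whole-number counts for 90662 numbered features. CASAVA 1.8 and Bowtie2 are listed in the submitters' processing notes; the study's methods align reads to a pan-transcriptome of needles, while a statement that the numbered features of this table are that reference, and the counter, were not found in the sources used here. Totals are nearly equal, so the deposited counts had been brought to about 1 depth (11293394 to 11300327 in March). The way this was done was not tested, and the extra precision of deeper libraries may no longer be in them. Of 47 columns, 1 was not used, since its label gives 17 June for tree 38 and the study's sampling list gives 10 March.

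Counts were fitted in R 4.3.3 with edgeR 4.0.16 (TMM, quasi-likelihood test, Benjamini-Hochberg adjustment, adjusted p up to 0.01) for features whose count had a median above 5 in the libraries of the fit. CPM was computed by edgeR from the TMM-scaled total of these features. Log2 CPM for components, distances and scores used a prior count of 1. Single library values were compared by two-sided exact permutation tests. Trees served as replicates although siblings are related, so p-values measure the spread between these trees. Libraries of the same tree deviated together (r 0.206 to 0.746 over 33 pairs of a March and a later library, 33 over 0.1), and the sampling of the same trees pairs the dates. Named features were to be, in each direction, the largest difference and the highest mean count among those called that averaged 50 counts or more and did not overlap.

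Alternatives were DESeq2 1.42.0, other thresholds, filters and scalings, flowcell terms, counts added up per family, equal weights of the Washington sources and leaving out each tree. Tests were checked on simulated counts. A fit in limma 3.58.1 with correlated siblings, DESeq2, components and overlap without tree 90, and season scores by flowcell and without single trees were chosen after seeing the data. The comparison, lists and tests were chosen with earlier results of these data known.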

Additional observations from a re-analysis of the deposited data

Results flagged for a closer look

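Of 33 sets of 4 or 7 March libraries examined for a value far from the rest, 5 held one. The limits used flag about 1 in 20 independent sets of normally distributed values. The sets here overlap, and the features among them were picked by their March values, so that rate does not carry over. In Oregon, tree 90 lay at -159.76 on the first principal component. Tree 90 also had the highest CPM of gene73506 among the Oregon trees, 45.85 against 16.8 to 18.3. In Washington, Cascades tree 05 had 2.788 CPM of the same feature against at most 0.588 in the other 6 trees. Coast tree 69 had 13320 CPM of gene33484 against at most 7860 in the other Washington trees. Among Coast libraries, tree 12 reached 50% of its counts with 540 features, where the other 3 needed 848 to 896.

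With the tree as a block, the difference between Oregon and Washington changed from 10 March to 7 April in 2 features and from 10 March to 6 May in 5, by a test of the change itself, whereas the fit of region and date alone called 0 on both dates.

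Tree 90 did not stand apart in the number of detected features on 7 April, when it had 52170 among 48244 to 55555. On 6 May it had 47705 among 44546 to 47973. On 17 June it again had the fewest, 44844 against 46246 to 51024 in the other libraries. The study's sampling list gives tree 90 the most reads of the libraries used on 10 March and on 17 June, but not on 7 April or 6 May. Whether read number bears on its detected features was not tested. On 10 March 307 of 16793 features averaging 50 counts or more were at least 4-fold below the median of the other libraries in tree 90, against 20 to 260 in the other trees.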

How the results depend on the processing

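The count of 0 features between Oregon and Washington on 10 March stayed at 0 in edgeR at an adjusted p of 0.05, with its own filter, with other size factors, with flowcell as a covariate, in either flowcell alone, with counts per family, with equal weights of the Washington sources, without the 50 most abundant features and, chosen after seeing the data, in limma with correlated siblings (correlation 0.0644, 2324 at an unadjusted p up to 0.05). It was 4 without a filter and 32 with DESeq2, or 31 with tree 90 left out. Leaving out 1 tree gave 0 to 1 calls, the 1 without tree 05, and 1692 (without tree 90) to 3150 (without tree 44) features at an unadjusted p up to 0.05. For Oregon against Coast (4 calls) leaving out 1 tree gave 1 to 5, and for Cascades against Coast (4 calls) 0 to 4. DESeq2 gave 44 for Oregon against Cascades, 40 for Oregon against Coast and 22 for Cascades against Coast, and 125, 102 and 73 for the regions on 7 April, 6 May and 17 June.

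With the tree as a replicate block the change of the difference from March was called in 2 features by 7 April and 5 by 6 May in place of 0, and in 0 by 17 June. DESeq2 called 1 by 7 April. Within March the regions share no tree, so no block applies there.

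The first component differed by -70.1 between the regions in all libraries, -40.4 in flowcell fc1022 and -99.0 in fc1025, and by -87.3 to -31.7 with 1 tree left out. The difference in the share of the 50 most abundant features was 1.51 to 2.98 percentage points and that in features holding 50% of counts -182.5 to -123.2 with 1 tree left out. The season score difference of 0.29 ran from 0.20 to 0.37. With components computed after leaving out tree 90 the first one differed by -68.1. Without that tree 492 features in place of 300 did not overlap. Fewer Oregon libraries then have to lie outside the Washington range, which can only keep or raise the count, so the 2 counts are not alike. The third component, which did not differ, changed sign with 1 tree left out (-22.9 to 1.11). The 4 named features kept their direction under each alternative in which they were fitted. They were picked because the regions did not overlap in these same libraries, so a kept direction is no check of them. The threshold was passed by gene73506 with DESeq2, without a filter and without tree 05, and by gene80206 with DESeq2. Large differences could also miss the threshold, as in gene73506 on 10 March (5.2 on the log2 scale, edgeR adjusted p = 0.214). The 4 against 7 trees of 6 families limit what the comparison says of the regions.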
